A study of Mus musculus with 12 samples.

Results

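The 10 genes described here encode secreted proteins of the extracellular matrix: the small leucine-rich proteoglycans Dcn, Lum, Ogn, Bgn, Fmod and Prelp, and the matrix glycoproteins Fbln1, Fbln2, Vtn and Fn1. They were taken by name from the 48709 genes counted, and the choice drew on their counts in all 4 groups of the study. Their own levels and fold changes are therefore given as a description, without p-values. Of 133 related matrix genes in 8 lists, those that passed a filter on low counts were tested, 121 in the mCherry and 117 in the EGFP comparison. These lists were also chosen with earlier results of these data known.

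RNA was sequenced from cells of embryonic day 18 hypothalami of C57BL/6 mice, which were dissociated, exposed to a virus at a multiplicity of infection of 10 and grown for 1 week as floating neurospheres, with bFGF at 10 ng/ml from the second day. Sorting by fluorescence gave 4 groups of 3 libraries. The mCherry-positive and mCherry-negative cells came from cultures given an adeno-associated virus with a reporter meant for HCRT (hypocretin, or orexin) cells, and 0.8 ng of total RNA entered each cDNA reaction. The EGFP-positive and EGFP-negative cells came from cultures given a lentivirus with a reporter meant for MCH (melanin-concentrating hormone) cells, with 2 ng of total RNA. The promoter behind each reporter is not given in the sources used here, and the labels do not say whether replicates were separate cultures, so the spread between them may be technical. Virus and RNA input differ between the sorts, and their parts in a difference between mCherry and EGFP libraries cannot be told apart.

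Small leucine-rich proteoglycans are short core proteins, built of leucine-rich repeats, that bind collagen fibrils and set their width and spacing. Several of them, decorin and biglycan among these, carry chondroitin or dermatan sulfate chains and bind TGF-beta, a growth factor that drives matrix production. Fibulins join basement membranes and elastic fibres, while vitronectin and fibronectin carry the RGD sequence through which integrins hold cells to the matrix. In the brain, fibrillar matrix lies mainly in the meninges and around vessels, where fibroblasts and pericytes make much of it, and the tissue between cells is built largely of hyaluronan, lecticans and tenascins.

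Libraries held 16.3 to 32.9 M (megareads) in genes. The hormone Pmch averaged 18.4 ± 1.02 CPM in EGFP-positive and 4.59 ± 0.577 CPM in EGFP-negative libraries (SD, n = 3 each; CPM, reads per megaread with TMM scaling over all 12 libraries). Hcrt had at most 14 reads in any library, so the defining transcript of the HCRT label was near 0 in the mCherry-positive libraries, with 21 reads in all, against 11 in mCherry-negative libraries. Marker sums showed mixed cells in all groups: 8 astrocyte markers summed to 9363 to 13531 CPM in mCherry-positive, 4724 to 8529 in mCherry-negative, 16863 to 21329 in EGFP-positive and 8836 to 9117 in EGFP-negative libraries. The 6 neuronal markers summed to 717 to 1729 CPM over the 12 libraries. In such mixtures fewer cells of a type and less RNA per cell cannot be told apart.

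Promoter windows from RefSeq (GRCm38.p6, 250 bases before to 50 after a gene's start, 300 in all) were found for 7 of the 10 genes; Dcn, Lum and Fn1 are named only. The windows of Prelp, Ogn and Vtn are printed because, of the genes with a window, these were the ones called different between EGFP-positive and EGFP-negative cells. They lie at chr1:133921352-133921651 on the minus strand for Prelp, at chr13:49607765-49608064 on the plus strand for Ogn and at chr11:78498870-78499169 on the plus strand for Vtn. Capitals mark a match to 1 of 3 motifs, the TATA motif TATAAA, the CCAAT motif and the GC motif GGGCGG, each searched on both strands.
Prelp: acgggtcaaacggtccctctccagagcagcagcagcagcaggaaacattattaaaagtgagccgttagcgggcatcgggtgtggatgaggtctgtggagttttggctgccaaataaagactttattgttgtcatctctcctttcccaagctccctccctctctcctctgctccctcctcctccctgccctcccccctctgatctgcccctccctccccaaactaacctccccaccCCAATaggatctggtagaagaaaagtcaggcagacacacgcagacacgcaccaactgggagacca
Ogn: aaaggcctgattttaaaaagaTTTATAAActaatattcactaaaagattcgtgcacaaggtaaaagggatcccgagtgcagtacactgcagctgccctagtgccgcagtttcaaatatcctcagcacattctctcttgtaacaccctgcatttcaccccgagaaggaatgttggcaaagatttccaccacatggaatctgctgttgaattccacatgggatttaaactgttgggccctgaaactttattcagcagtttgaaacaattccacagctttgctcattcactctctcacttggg
Vtn: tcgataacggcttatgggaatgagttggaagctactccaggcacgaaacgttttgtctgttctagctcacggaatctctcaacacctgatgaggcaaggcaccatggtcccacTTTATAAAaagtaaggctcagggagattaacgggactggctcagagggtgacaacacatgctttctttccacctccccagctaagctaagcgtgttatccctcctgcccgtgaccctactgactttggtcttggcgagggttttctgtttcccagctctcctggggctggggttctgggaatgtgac
The Prelp window holds CCAAT 15 bases before the start. In the Ogn and Vtn windows the TATA motif overlaps its own reverse complement, with first bases 227 and 229 bases before the start for Ogn, and 135 and 137 bases before it for Vtn. Of the other windows, that of Fmod holds CCAAT, 34 bases after the start, and those of Bgn and Fbln2 hold the GC motif or its reverse complement. Fbln1 has 2 windows, of which 1 holds the GC motif and the other holds none of the motifs. Over all 32851 windows, 13.6% held the TATA motif, 37.4% the CCAAT motif and 35.7% the GC motif, in either direction. These matches describe letters, not binding sites.

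Decorin (Dcn, ENSMUSG00000019929, GRCm38 chr10:97479609-97518143, plus strand), the proteoglycan that coats collagen fibrils, was lower in EGFP-positive cells. Its level was 1.98, 1.79 and 2.63 CPM in the EGFP-positive libraries, against 30.7, 26.1 and 31.6 CPM in the EGFP-negative libraries. The groups stood far apart, with a log2 fold change of -3.79 ± 0.21 (SE), 13.8 times lower. Dcn in the HCRT sort had 13.6, 0.184 and 6.89 CPM in mCherry-positive libraries, against 27.5, 15.7 and 8.48 CPM in mCherry-negative libraries. These groups overlapped, and the second mCherry-positive library was by far the lowest of the 12, with 6 reads. The log2 fold change was -1.31 ± 0.95, and over the alternative settings it ran between -2.71 and -0.73.

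Lumican (Lum, ENSMUSG00000036446, chr10:97565128-97572703, plus strand), a keratan sulfate proteoglycan of fibrils best known in the cornea, starts 46985 bp beyond the end of Dcn on the same strand. It had 0, 0 and 0.386 CPM in EGFP-positive libraries, against 2.86, 3.01 and 1.92 CPM in EGFP-negative libraries. That is 11 reads against 183, with no overlap, and the fitted log2 fold change was -4.10 ± 0.85. The 2 EGFP-positive libraries at 0 allow levels of up to 0.186 and 0.120 CPM (3 counts, a limit for counting error only). Lum had 3.65, 0 and 1.18 CPM in mCherry-positive libraries, against 9.56, 5.90 and 0.363 CPM in mCherry-negative libraries, and the groups overlapped (log2 fold change -1.72 ± 1.32). The mCherry-positive library at 0 was again replicate 2. The next genes of this cluster, Kera and Epyc, are proteoglycans of cornea and cartilage. Kera had 0 reads in all 12 libraries, and Epyc had at most 5 reads in any group.

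Prelp (ENSMUSG00000041577, chr1:133910304-133921414, minus strand), which binds heparan sulfate and collagen at basement membranes, was higher in the reporter-positive cells of both sorts. In the HCRT sort it had 63.7, 41.0 and 36.1 CPM in mCherry-positive libraries, against 13.3, 15.97 and 5.90 CPM in mCherry-negative libraries. In the MCH sort it had 63.6, 64.6 and 67.8 CPM in EGFP-positive libraries, against 27.9, 25.5 and 20.2 CPM in EGFP-negative libraries. Neither pair of groups overlapped. The log2 fold changes were 2.00 ± 0.38 and 1.39 ± 0.15, and they differed by 0.58 ± 0.42. An exon of the gene Gm15851 on the opposite strand covers 9.68% of Prelp's exon bases. The strand setting of the counting is not given in the sources used here, so reads in that stretch cannot be assigned with certainty.

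Osteoglycin (Ogn, ENSMUSG00000021390, chr13:49608046-49624501, plus strand) and fibromodulin (Fmod, ENSMUSG00000041559, chr1:134037254-134048277, plus strand), both fibril-binding proteoglycans, were rare. Ogn had 0.620, 1.75 and 1.72 CPM in EGFP-positive libraries, against 0.159, 0.418 and 0.0601 CPM in EGFP-negative libraries. That is 103 reads against 16, without overlap, and a log2 fold change of 2.57 ± 0.69. With the HCRT reporter, Ogn had 0.984, 0 and 0.813 CPM in mCherry-positive libraries, against 1.70, 2.06 and 0 CPM in mCherry-negative libraries, an overlap with 1 library at 0 on each side (log2 fold change -1.07 ± 1.46). Fmod had 1.12, 0.598 and 1.05 CPM in EGFP-positive libraries, against 0.159, 0.0380 and 0.481 CPM in EGFP-negative libraries. The groups did not overlap, at 63 reads against 13 (log2 fold change 2.11 ± 0.75). For the HCRT sort all 31 reads of Fmod in mCherry-positive cells and all 10 in mCherry-negative cells lay in replicate 1, and the gene fell below the filter on low counts. Ogn and Fmod thus stood higher in the EGFP-positive cells in which Dcn and Lum stood lower, though Fmod was not called. Ogn and Fmod had at least 10 and 15 reads in each EGFP-positive library, against at most 11 and 8 in an EGFP-negative library. Lum had at least 32 reads in each EGFP-negative library, against at most 11 in an EGFP-positive library. These 3 genes passed the filter mainly through the group where they were high, so the contrast is only a description.

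Biglycan (Bgn, ENSMUSG00000031375, chrX:73483602-73495933, plus strand), the close relative of decorin with a pair of glycosaminoglycan chains, had group means of 12.6 CPM in mCherry-positive, 12.1 in mCherry-negative, 13.9 in EGFP-positive and 15.3 CPM in EGFP-negative cells. It had 13.7, 4.67 and 19.4 CPM in mCherry-positive libraries, against 15.5, 9.06 and 11.7 CPM in mCherry-negative libraries. It had 12.03, 14.9 and 14.8 CPM in EGFP-positive libraries, against 14.2, 13.5 and 18.3 CPM in EGFP-negative libraries. Both pairs overlapped, with log2 fold changes of 0.07 ± 0.47 and -0.15 ± 0.18, the first of which changed sign under other settings (-0.39 to 0.47). The second mCherry-positive library was the lowest of the 12 for Bgn as well.

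**Figure D1:**
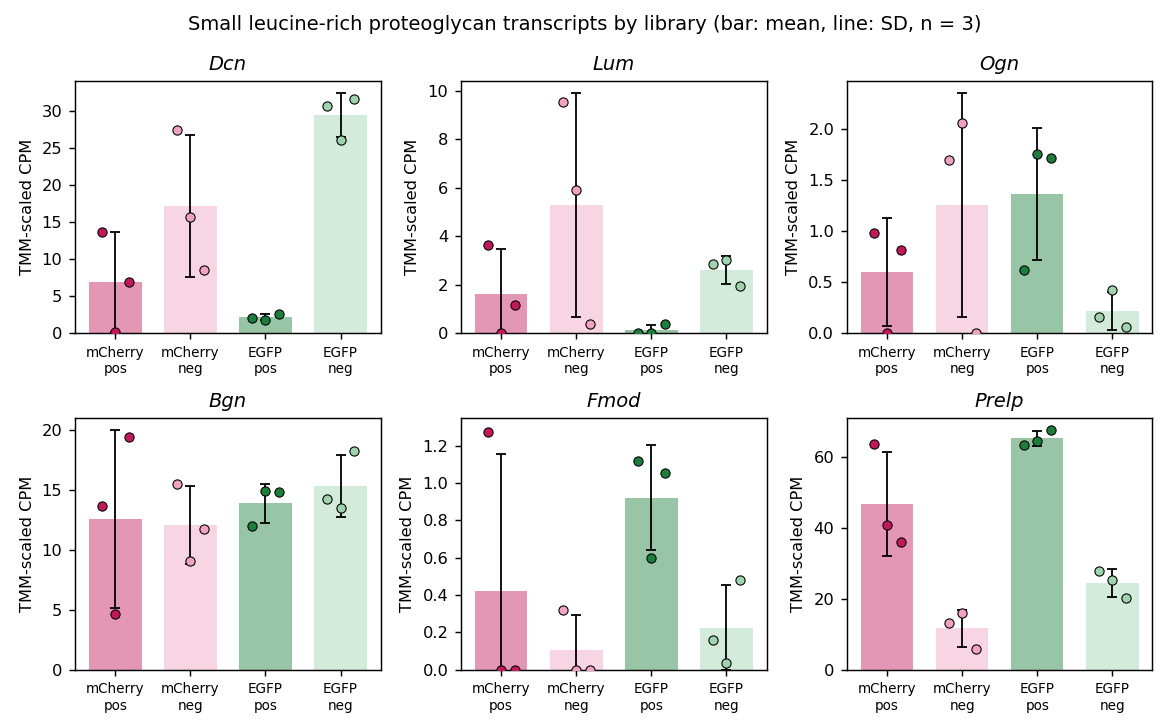
TMM-scaled CPM of the 6 small leucine-rich proteoglycan genes in each library (points), with the mean (bar) and SD (line) of the 3 libraries of each group and a y axis of its own for each gene. Dcn and Lum are low in EGFP-positive libraries (at most 2.63 and 0.386 CPM), while Prelp stands above its reporter-negative libraries in both sorts.

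Fibulin-1 (Fbln1, ENSMUSG00000006369, chr15:85205949-85286535, plus strand), a calcium-binding glycoprotein of basement membranes and elastic fibres, had fold changes of opposite sign in the 2 sorts. It had 39.8, 37.97 and 43.8 CPM in mCherry-positive libraries, against 68.8, 65.3 and 73.5 CPM in mCherry-negative libraries. It had 91.1, 72.1 and 75.0 CPM in EGFP-positive libraries, against 67.9, 63.1 and 63.2 CPM in EGFP-negative libraries. No pair overlapped, as held for 25.8% and 35.5% of all genes in the HCRT and MCH sorts. The log2 fold change was -0.76 ± 0.17 in the HCRT sort and 0.27 ± 0.13 in the MCH sort. Neither was called in the edgeR test described below, while the difference between them was. The mCherry effect minus the EGFP effect was -1.07 ± 0.20.

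Fibulin-2 (Fbln2, ENSMUSG00000064080, chr6:91212455-91272540, plus strand), which binds fibronectin and elastin, had a like profile. Its level was 46.1, 49.3 and 58.3 CPM in mCherry-positive libraries, against 90.4, 60.9 and 71.7 CPM in mCherry-negative libraries. For the MCH sort it was 83.2, 100.9 and 104.5 CPM in EGFP-positive libraries, against 86.9, 94.1 and 77.2 CPM in EGFP-negative libraries. The first pair did not overlap and the second did, with log2 fold changes of -0.53 ± 0.20 and 0.14 ± 0.14. The difference between the sorts was -0.70 ± 0.24. For both fibulins the mCherry-positive libraries were the lowest of the 12.

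Vitronectin (Vtn, ENSMUSG00000017344, chr11:78499091-78502324, plus strand), an adhesive glycoprotein of plasma that brain pericytes also make, was lower in EGFP-positive cells. Its level was 4.96, 6.38 and 6.98 CPM in EGFP-positive libraries, against 21.1, 25.3 and 22.1 CPM in EGFP-negative libraries. The groups did not overlap, and the log2 fold change was -1.91 ± 0.19, or 3.77 times lower. Vtn in the HCRT sort had 21.1, 8.46 and 14.5 CPM in mCherry-positive libraries, against 31.2, 16.002 and 22.7 CPM in mCherry-negative libraries. These ranges overlapped (log2 fold change -0.66 ± 0.37), with the second mCherry-positive library again the lowest of its sort. The mCherry effect minus the EGFP effect was 1.23 ± 0.44.

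Fibronectin (Fn1, ENSMUSG00000026193, chr1:71585520-71653200, minus strand), the scaffold on which cells assemble other matrix, had overlapping groups in both sorts. It had 24.2, 11.7 and 12.7 CPM in mCherry-positive libraries, against 11.8, 5.07 and 5.08 CPM in mCherry-negative libraries. It had 15.3, 34.7 and 36.4 CPM in EGFP-positive libraries, against 15.7, 22.6 and 26.2 CPM in EGFP-negative libraries. Both pairs overlapped, with log2 fold changes of 1.15 ± 0.43 and 0.41 ± 0.32. Replicate 1 was the highest in the mCherry groups and the lowest in the EGFP groups. Exons of Apol7d on the other strand cover 2.499% of Fn1's exon bases.

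**Figure D2:**
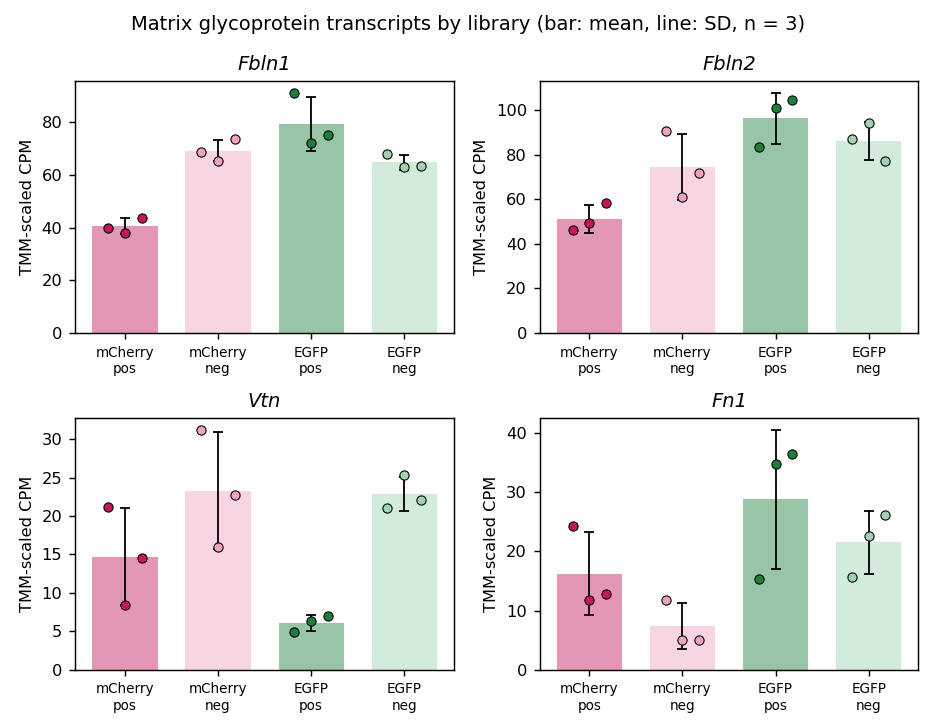
TMM-scaled CPM of the 4 matrix glycoprotein genes in each library (points), with the mean (bar) and SD (line) of the 3 libraries of each group. Fbln1 and Fbln2 are lowest in mCherry-positive libraries (means of 40.5 and 51.3 CPM), and Vtn is lowest in EGFP-positive libraries (mean of 6.11 CPM).

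Compared per kilobase of exon, so that genes of unequal length can be set side by side, Fbln1, Fbln2, Prelp and Vtn had the 4 highest means in every group. In mCherry-positive libraries the order began with Prelp at 13.0, Fbln1 at 9.27, Fbln2 at 8.05 and Vtn at 7.24 CPM per kilobase, each overlapping the next in range. In mCherry-negative libraries it began with Fbln1 at 15.8, Fbln2 at 11.7, Vtn at 11.5 and Prelp at 3.24 CPM per kilobase. There the range of Vtn overlapped those of Fbln1 and Fbln2, and that of Prelp overlapped that of Dcn, the next. In EGFP-positive libraries Fbln1 stood at 18.2, Prelp at 18.1, Fbln2 at 15.1 and Vtn at 3.01, against 14.8 for Fbln1, 13.5 for Fbln2, 11.3 for Vtn and 6.78 for Prelp in EGFP-negative libraries. Ranges overlapped in EGFP-positive libraries between Fbln1 and Prelp and between Vtn and Fn1, the next, and in EGFP-negative libraries between Fbln1 and Fbln2 and between Fbln2 and Vtn, so the order within these pairs is not fixed. Dcn had rank 8 of 10 in EGFP-positive libraries, at 0.366 CPM per kilobase, against rank 5 in EGFP-negative libraries, at 5.05 CPM per kilobase. Fmod and Ogn averaged at most 0.532 CPM per kilobase in any group.

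Over the 4 groups, the highest and second highest means of each gene had overlapping ranges for all 10 genes. For Prelp the order ran from EGFP-positive and mCherry-positive, whose ranges overlapped, to EGFP-negative and then mCherry-negative libraries, the last 2 steps without overlap. For Fbln1 and Fbln2 the step down to mCherry-positive libraries had no overlap, and for Vtn the step down to EGFP-positive libraries had none. For Dcn, Lum, Ogn, Bgn, Fmod and Fn1 every group overlapped its neighbour in the order of means.

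A gene was called at a Benjamini-Hochberg adjusted p under 0.05 over all genes of a comparison, in edgeR's quasi-likelihood test. In the MCH sort 5 of the 10 genes were called, Prelp and Ogn higher and Dcn, Lum and Vtn lower in EGFP-positive cells; of all 16326 genes tested, 16.1% were called, 8.99% higher and 7.07% lower. In the HCRT sort 1 of the 9 genes that passed the filter on low counts was called, Prelp higher in mCherry-positive cells, against 1.20% of 17369 genes tested, 0.541% higher and 0.656% lower. The difference between the sorts was called for 1 of 10, Fbln1, against 1.44% of 18063 genes, 0.886% with a positive and 0.559% with a negative difference. Groups did not overlap for 7 of 10 genes in the MCH sort, where this held for 35.5% of all genes, and for 3 of 9 in the HCRT sort, where it held for 25.8%. In the MCH sort Lum, Ogn and Fmod passed the filter mainly through the group where they were high. The 10 genes were chosen on these same counts, so the counts of calls and of groups without overlap describe them and are not evidence about them. Their median log2 fold change was -0.66 in the HCRT sort, 0.21 in the MCH sort and 0.39 for the difference, where the medians of all genes tested were 0.02, -0.01 and -0.03.

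**Figure D3:**
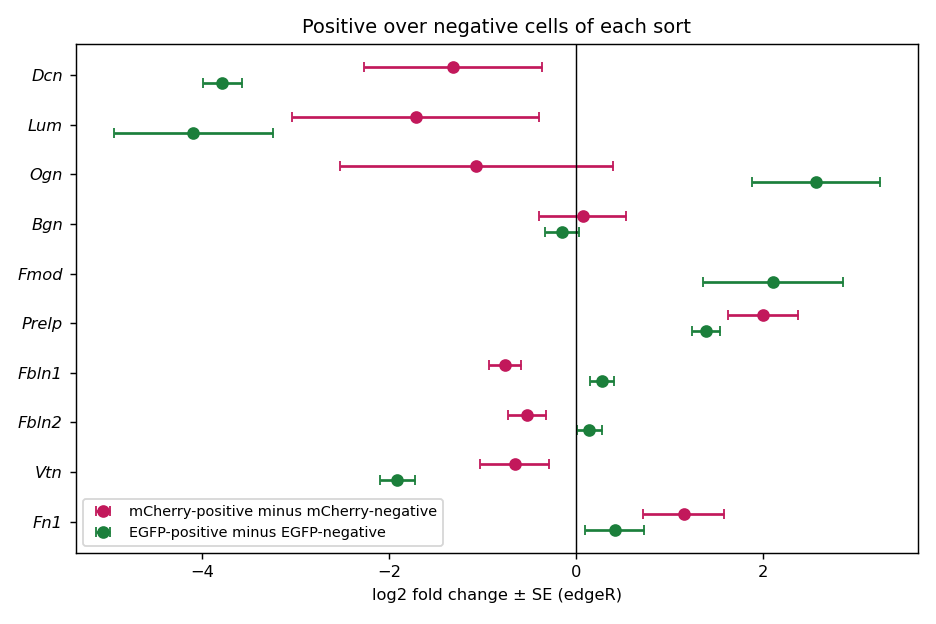
Fitted log2 fold change (points, with SE as lines) of each gene in reporter-positive over reporter-negative cells, for the HCRT sort (mCherry) and the MCH sort (EGFP). Prelp lies above 0 in both sorts (2.00 and 1.39), Fbln1 lies on opposite sides of 0, and Fmod has no value for mCherry because it fell below the filter on low counts.

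The calls depended unevenly on single libraries. Prelp lost its call in the HCRT sort when any 1 of the 6 libraries was left out, while its log2 fold change stayed between 1.696 and 2.30. Dcn, Prelp and Vtn kept their MCH calls in every setting tried. Ogn lost its call without EGFP-positive replicate 2 or 3 or EGFP-negative replicate 1 or 3, with log2 fold changes of 2.375, 2.39, 2.37 and 2.22. Lum lost its call without EGFP-negative replicate 1 or 2, with -4.036 and -3.992, and without EGFP-positive replicate 3, the only one of that group with reads, its fitted value was -8.84. In 1 fit of all 12 libraries Lum and Ogn also lost their MCH calls, at -4.12 and 2.61. Without EGFP-positive replicate 1, Fn1 was called at 0.72 and 6 of the 10 genes were called. For the difference between the sorts, Fbln1 lost its call without EGFP-positive replicate 2 or any 1 of the EGFP-negative replicates, at -1.11, -1.08, -1.03 and -1.06. Without mCherry-positive replicate 2, the difference for Dcn was 3.01 and was called. The difference for Fmod, -0.22 ± 2.53, cannot be read, since leaving out 1 library took it to -6.66 or 4.36.

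The genes whose profile over the 12 libraries was nearest to each of the 7 more abundant ones were found by the root mean square difference of centred log2 levels, among 11872 genes at 5 CPM or more. Dcn was nearest to Col1a1, the main chain of collagen I, at 0.71, and to Cxcl12, a chemokine of stromal cells, at 0.76, against a spread of 1.74 of its own. Col1a1 averaged 12.02 CPM in EGFP-positive and 110 CPM in EGFP-negative libraries, and 17.4 CPM in mCherry-positive and 35.4 CPM in mCherry-negative libraries. Prelp was nearest to Drc7, a protein of motile cilia, at 0.13, and to Prr5l at 0.23. Drc7 averaged 14.2 CPM in mCherry-positive and 3.33 CPM in mCherry-negative libraries, and 18.7 CPM in EGFP-positive and 7.83 CPM in EGFP-negative libraries. Fn1 was nearest to Nid1, the basement membrane protein nidogen-1, at 0.34, and to Prkacb at 0.35. Fbln1 was nearest to Gstm7 at 0.13 and Cnn2 at 0.14, Fbln2 to Vangl2 and Dhx38 at 0.14 each, Bgn to Pcdhac2 at 0.22 and Pald1 at 0.28, and Vtn to Kctd4 at 0.39 and Sh3d19 at 0.42. Among the 7 genes themselves, Fbln1 and Fbln2 were the nearest pair, at 0.23. Their own spreads, 0.37 and 0.38, were also the smallest of the 7, and genes of small spread can lie near each other for that alone. The spread was 0.49 for Bgn, 0.82 for Vtn, 0.86 for Fn1 and 1.03 for Prelp.

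Markers of meningeal and perivascular fibroblasts were lower along with Dcn, Lum and Vtn in EGFP-positive libraries. The list holds 12 genes, and its highest, Pdgfra, also marks oligodendrocyte precursors, so sums are given for the other 11. They summed to 106, 130 and 126 CPM in EGFP-positive libraries, against 417, 437 and 389 CPM in EGFP-negative libraries. Of the 9 of the 12 markers tested in the MCH sort, 7 fell and 0 rose, with a median log2 fold change of -1.95. Col1a1, Col1a2 and Col3a1 were among those that fell. In the other sort these markers summed to 188, 24.7 and 138 CPM in mCherry-positive libraries, against 378, 155 and 129 CPM in mCherry-negative libraries. Of 10 tested, 0 were called by edgeR, 0 had an unadjusted p under 0.05, 0 were called by DESeq2 and 0 by limma-voom; the median was -0.72. The second mCherry-positive library, lowest for Dcn and at 0 reads for Lum and Ogn, was the lowest of the 12 for these markers too. Slc22a6 had 0 reads in every mCherry-negative and EGFP-positive library. The 7 markers listed for pituitary, led by Pomc, were also low in EGFP-positive libraries, at 40.4 to 68.8 CPM against 356 to 460 CPM in EGFP-negative libraries. Of these 7, 4 fell and 0 rose in the MCH sort. They summed to 9.06 to 5101 CPM in mCherry-positive and 7.29 to 221 CPM in mCherry-negative libraries. There edgeR, DESeq2 and limma-voom called 0 of the 7, and 4 had an unadjusted p under 0.05, as did 3233 of all 17369 genes. Which cells carried the markers of either list, and their part in the levels of Dcn, Lum and Vtn, was not tested.

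**Figure D4:**
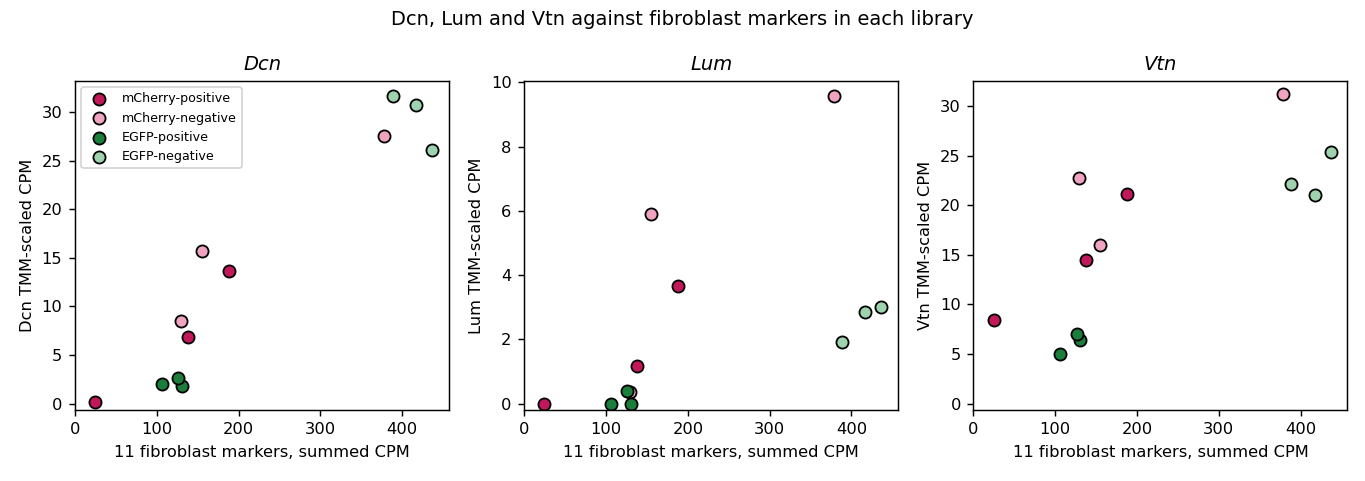
Level of Dcn, Lum and Vtn in each of the 12 libraries (y axis, TMM-scaled CPM) against the summed CPM of 11 fibroblast markers in the same library (x axis). The markers include the collagens Col1a1, Col1a2 and Col3a1. EGFP-positive libraries sit at 106 to 130 CPM of markers with low Dcn, Lum and Vtn, and EGFP-negative libraries at 389 to 437 CPM. The third mCherry-negative library, at 129 CPM of markers, has 8.48 CPM of Dcn, 0.363 of Lum and 22.7 of Vtn. The second mCherry-positive library, at 24.7 CPM of markers, has 0.184 CPM of Dcn, 0 of Lum and 8.46 of Vtn. Lum is highest in the first mCherry-negative library.

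Markers of vessel cells took other courses. The 10 pericyte and smooth muscle markers other than Cspg4, which oligodendrocyte precursors share, summed to 58.5 to 72.0 CPM in EGFP-positive libraries, against 33.1 to 37.95 CPM in EGFP-negative libraries, the reverse of the order for Vtn. With Cspg4, the highest of the list, the 11 markers summed to 84.9 to 121 CPM in EGFP-positive libraries, against 149 to 154 CPM in EGFP-negative libraries, the order of Vtn. Of 5 tested, 3 rose and 1 fell in EGFP-positive cells. Without Cspg4 they summed to 28.4 to 39.2 CPM in mCherry-positive and 27.5 to 40.8 CPM in mCherry-negative libraries. Abcc9, Higd1b and Anpep of this list had 0 reads in EGFP-positive libraries, and Higd1b had 0 in mCherry-negative and EGFP-negative libraries. The 10 endothelial markers summed to at most 4.60 CPM in any library. The 6 markers of ependyma and tanycytes, cells of the ventricle wall, had higher sums in the reporter-positive libraries of both sorts, as Prelp did. They summed to 73.9 to 92.8 CPM in mCherry-positive and 26.5 to 58.4 CPM in mCherry-negative libraries, and to 91.1 to 112 CPM in EGFP-positive and 57.7 to 61.8 CPM in EGFP-negative libraries. Of the 6 tested in each sort, 2 rose and 0 fell in the MCH sort. In the HCRT sort edgeR called 0, while 3 had an unadjusted p under 0.05, DESeq2 called 2 and limma-voom called 0. Sums of astrocyte markers were also higher in the reporter-positive libraries of both sorts, and 7 of 8 rose and 1 fell in the MCH sort, while 1 of 8 rose in the HCRT sort. Choroid plexus markers summed to 198 to 242 CPM in EGFP-positive and 62.1 to 69.4 CPM in EGFP-negative libraries, and 4 of 4 tested rose. They summed to 31.3, 268 and 72.6 CPM in mCherry-positive libraries, against 34.7, 88.4 and 21.2 CPM in mCherry-negative libraries. These ranges overlapped, and of 4 tested 0 were called by edgeR, 0 had an unadjusted p under 0.05, and 0 were called by DESeq2 or by limma-voom. The part of each in the level of Prelp was not tested.

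Of the 133 related matrix genes, 117 were tested in the MCH sort. There 24 rose and 21 fell in EGFP-positive cells, 38.5% against the 16.1% of all genes. For the HCRT sort, 3 of 121 rose and 0 fell in mCherry-positive cells, 2.48% against 1.20%. The lists were chosen with earlier results of these data known, so these shares are a description.

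Other small leucine-rich proteoglycans were mostly under the filter on low counts, which 4 of 11 passed in each sort. Ecm2, which neighbours Aspn, Omd and Ogn on chromosome 13, rose in EGFP-positive cells, to 4.15 ± 1.71 CPM against 1.49 ± 0.223 CPM in EGFP-negative cells (SD, n = 3 each; log2 fold change 1.48 ± 0.37, adjusted p = 0.0248). It lost this call without EGFP-positive replicate 2 or any 1 of the EGFP-negative replicates, at 1.20 to 1.599. In the HCRT sort its log2 fold change was 1.41 ± 0.67, not called. Between Ecm2 and Ogn, Omd had 27 reads over the EGFP-positive libraries, against 10 over the EGFP-negative ones, and 17 over the mCherry-positive libraries, against 7 over the mCherry-negative ones. Aspn had at most 8 reads in any group. Optc, which lies 2305 bp from Prelp, averaged 4.68 ± 1.45 CPM in EGFP-positive and 2.47 ± 0.633 CPM in EGFP-negative libraries and was not called. No gene of the list was called in the HCRT sort, where Tsku averaged 4.99 ± 2.10 CPM in mCherry-positive and 4.05 ± 2.36 CPM in mCherry-negative libraries, and Optc 3.7 ± 1.73 and 3.36 ± 0.143 CPM in the same order.

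Collagens and the enzymes that process them were lower on balance in EGFP-positive cells. Of 18 tested, 8 fell and 2 rose, and the median log2 fold change was -0.66. Col1a1 fell by 3.20 ± 0.19 on the log2 scale (adjusted p = 3.3e-05), and Col3a1, the collagen of pliable tissue, fell to 17.0 ± 6.71 CPM in EGFP-positive cells, against 153 ± 7.76 CPM in EGFP-negative cells (-3.17 ± 0.26, adjusted p = 0.00022). Pcolce, which speeds the trimming of procollagen, fell by 2.43 ± 0.23 (adjusted p = 0.00037). Serpinh1, the collagen chaperone HSP47, rose to 654 ± 31.6 CPM in EGFP-positive cells, against 351 ± 14.7 CPM in EGFP-negative cells (0.88 ± 0.09, adjusted p = 0.00048). Col5a2, a chain of collagen V, rose by 0.79 ± 0.17 (adjusted p = 0.0152), a call lost without EGFP-positive replicate 2 or any 1 of the EGFP-negative replicates, at 0.73 to 0.83. Col1a1, Col1a2 and Col3a1 also stand in the fibroblast list, whose sums moved the same way. That agreement is in part built in. Col1a1 and Col3a1 averaged 110 and 153 CPM in EGFP-negative libraries, where the sums were 389 to 437 CPM. None of the 18 was called in the HCRT sort, where Serpinh1 averaged 262 ± 45.1 CPM in mCherry-positive and 286 ± 47.8 CPM in mCherry-negative cells, and P4ha1 141 ± 27.8 and 113 ± 9.94 CPM in the same order. The log2 fold change of Col5a2 was 1.25 ± 0.27 there (adjusted p = 0.0598). Col1a1 was at -1.01 ± 0.997, Col3a1 at -1.11 ± 1.20 and Pcolce at -1.20 ± 0.54.

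Among 20 other matrix glycoproteins, 5 rose and 5 fell in EGFP-positive cells. Thrombospondin-2 (Thbs2) rose to 27.2 ± 9.69 CPM, against 5.63 ± 0.358 CPM in EGFP-negative cells (2.25 ± 0.26, adjusted p = 0.00077). Sparcl1, which astrocytes secrete, rose to 2200 ± 350 CPM against 1105 ± 43.4 CPM (0.97 ± 0.12, adjusted p = 0.00098), and tenascin-C (Tnc) rose by 1.52 ± 0.28 (adjusted p = 0.0071). Tenascin-R (Tnr), made by oligodendrocytes and some neurons, fell to 30.3 ± 3.42 CPM in EGFP-positive cells, against 113 ± 7.92 CPM in EGFP-negative cells (-1.92 ± 0.13, adjusted p = 7.5e-05). Osteopontin (Spp1) fell by 1.98 ± 0.23 (adjusted p = 0.00083) and matrilin-4 (Matn4) by 1.28 ± 0.16 (adjusted p = 0.0011). Markers of oligodendrocytes summed to 1190 to 1220 CPM in EGFP-positive and 3549 to 3694 CPM in EGFP-negative libraries, and microglial markers to 37.3 to 40.8 and 55.2 to 68.8 CPM in the same order. The part of these cells in the levels of Tnr and Spp1 was not tested.

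In the HCRT sort 2 of these glycoproteins rose. Reelin (Reln), which guides neuron migration, averaged 37.4 ± 8.66 CPM in mCherry-positive and 7.10 ± 1.86 CPM in mCherry-negative cells (2.41 ± 0.29, adjusted p = 0.0181). Sparc, a collagen-binding glycoprotein, averaged 619 ± 55.1 and 232 ± 46.2 CPM in the same order (1.43 ± 0.20, adjusted p = 0.0256). Reln lost its call without mCherry-positive replicate 3 or mCherry-negative replicate 1 or 2, at 2.22, 2.57 and 2.22, fits in which 0 of all genes were called. Sparc lost its call without any 1 of these 3 libraries, at 1.37, 1.39 and 1.604, and without mCherry-positive replicate 2 or mCherry-negative replicate 3, at 1.498 and 1.32. Over all genes 16 and 29 were called in the last 2 of these fits. The glycoproteins named above for the MCH sort were not called in the HCRT sort. There Sparcl1 was at 1.76 ± 0.36 (adjusted p = 0.0528) and Tnc at 1.495 ± 0.34 (adjusted p = 0.068), both higher as in the MCH sort. Thbs2 was at 1.69 ± 0.99, Spp1 at 0.59 ± 0.69, Tnr at 0.094 ± 0.26 and Matn4 at -0.77 ± 0.297. The mCherry effect minus the EGFP effect was 2.48 ± 0.39 for Reln (adjusted p = 0.0122), 1.17 ± 0.22 for Sparc (adjusted p = 0.0208) and 1.99 ± 0.32 for Tnr (adjusted p = 0.0122).

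Other fibulins and elastic fibre proteins had 5 rises and 2 falls among 16 tested in the MCH sort. Fbln7, a fibulin of cell adhesion, rose to 16.2 ± 3.16 CPM in EGFP-positive cells, against 6.74 ± 0.924 CPM in EGFP-negative cells (1.24 ± 0.21, adjusted p = 0.0043). Efemp2, also called fibulin-4, rose by 0.53 ± 0.12 (adjusted p = 0.0203), and Ltbp1, which stores latent TGF-beta, by 1.45 ± 0.34 (adjusted p = 0.0207). Fibrillin-2 (Fbn2) fell to 2.92 ± 0.538 CPM, against 11.4 ± 1.40 CPM in EGFP-negative cells (-1.96 ± 0.22, adjusted p = 0.00073), and Mfap4 fell by 0.86 ± 0.18 (adjusted p = 0.0126). Without EGFP-positive replicate 2 or EGFP-negative replicate 1 or 2 the calls of Efemp2, Ltbp1 and Mfap4 were lost, and those of Efemp2 and Ltbp1 also without EGFP-negative replicate 3, at 0.49 to 0.57 for Efemp2, 1.26 to 1.53 for Ltbp1 and -0.89 to -0.77 for Mfap4. No gene of the list was called in the HCRT sort. There Efemp2 averaged 57.6 ± 7.71 CPM in mCherry-positive and 76.2 ± 4.85 CPM in mCherry-negative cells, and the elastic fibre protein Mfap2 averaged 91.3 ± 26.1 and 158 ± 35.8 CPM in the same order. The log2 fold changes in that sort were 1.09 ± 0.47 for Ltbp1 and -0.39 ± 0.38 for Fbln7. Fbn2 was at 0.043 ± 0.41 and Mfap4 at -1.35 ± 0.53. The mCherry effect minus the EGFP effect was -0.95 ± 0.21 for Efemp2 (adjusted p = 0.0386), the sign also seen for Fbln1. That call was lost without any 1 of 10 of the 12 libraries, at -1.02 to -0.84; it stood without mCherry-positive replicate 1 or mCherry-negative replicate 3.

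Receptors that bind the 10 proteins had 3 rises and 1 fall among 14 tested in the MCH sort. Tlr2, an innate immune receptor that soluble biglycan can engage, rose to 12.2 ± 1.77 CPM in EGFP-positive cells, against 3.35 ± 0.292 CPM in EGFP-negative cells (1.86 ± 0.20, adjusted p = 0.00066). Itga5, the alpha chain of the main fibronectin receptor, rose by 0.87 ± 0.22 (adjusted p = 0.0284), and lost its call without any 1 library except EGFP-positive replicate 1, at 0.64 to 0.997. Lrp1, an endocytic receptor that clears decorin, fell by 0.68 ± 0.11 (adjusted p = 0.0041). In the HCRT sort Tlr2 was at 3.46 ± 0.77, not called (adjusted p = 0.0646). Itga5 at 0.80 ± 0.44 and Lrp1 at 0.32 ± 0.18 were not called there either. Syndecan-4 (Sdc4), the heparan sulfate co-receptor of fibronectin, rose in both sorts. It averaged 154 ± 14.5 CPM in EGFP-positive and 95.7 ± 4.44 CPM in EGFP-negative cells (0.67 ± 0.11, adjusted p = 0.0049), and 90.1 ± 36.9 CPM in mCherry-positive and 31.8 ± 5.96 CPM in mCherry-negative cells (1.51 ± 0.29, adjusted p = 0.0448). The call in the HCRT sort was lost without any 1 of the 6 libraries, with log2 fold changes of 1.12 to 1.68. For Lrp1 the mCherry effect minus the EGFP effect was 0.98 ± 0.21 (adjusted p = 0.0364), a call lost without any 1 of the EGFP libraries, of mCherry-positive replicates 2 and 3 or of mCherry-negative replicate 2, at 0.83 to 1.06.

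Enzymes that build glycosaminoglycan chains had 1 rise and 3 falls among 18 tested in the MCH sort. Csgalnact1, which starts chondroitin sulfate chains, rose by 0.84 ± 0.21 (adjusted p = 0.0258), a call lost without EGFP-positive replicate 2 or any 1 of the EGFP-negative replicates, at 0.797 to 0.89. The falls were Ust, which sulfates uronic acid (-1.12 ± 0.13, adjusted p = 0.00078), Chst11, a chondroitin sulfotransferase (-1.14 ± 0.16, adjusted p = 0.0020), and Xylt1, which attaches the first sugar to the core protein (-0.82 ± 0.14, adjusted p = 0.0046). None was called in the HCRT sort, where Chpf averaged 114 ± 34.6 CPM in mCherry-positive and 109 ± 10.7 CPM in mCherry-negative cells, and B3gat3 64.2 ± 12.6 and 60.8 ± 8.27 CPM in the same order. The log2 fold change of Csgalnact1 was 1.09 ± 0.23 there (adjusted p = 0.0598). Ust was at 0.52 ± 0.25, Chst11 at -0.58 ± 0.28 and Xylt1 at -0.057 ± 0.196. The mCherry effect minus the EGFP effect was 1.61 ± 0.29 for Ust (adjusted p = 0.0202). It lost this call without mCherry-negative replicate 2, EGFP-positive replicate 2 or any 1 of the EGFP-negative replicates, at 1.56 to 1.67.

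Matrix proteases and their inhibitors had 6 rises and 2 falls among 15 tested in the MCH sort. Mmp14, a membrane-bound collagenase, rose to 305 ± 20.04 CPM in EGFP-positive cells, against 166 ± 5.21 CPM in EGFP-negative cells (0.86 ± 0.10, adjusted p = 0.00076). Tissue plasminogen activator (Plat) rose by 1.07 ± 0.13 (adjusted p = 0.0011) and the inhibitor Timp2 by 0.82 ± 0.12 (adjusted p = 0.0021). The lectican-cleaving protease Adamts4 fell by 1.01 ± 0.17 (adjusted p = 0.0050) and Mmp15 by 0.75 ± 0.14 (adjusted p = 0.0065). None of 16 was called in the HCRT sort, where Serpine2 averaged 751 ± 137 CPM in mCherry-positive and 809 ± 233 CPM in mCherry-negative cells, and Timp2 averaged 493 ± 76.4 and 321 ± 48.1 CPM in the same order. The log2 fold changes in that sort were 0.91 ± 0.29 for Plat and 0.095 ± 0.17 for Mmp14. Adamts4 was at 0.38 ± 0.19 and Mmp15 at -0.77 ± 0.29. The mCherry effect minus the EGFP effect was 1.37 ± 0.25 for Adamts4 (adjusted p = 0.0210). It lost this call without mCherry-negative replicate 2, EGFP-positive replicate 2 or any 1 of the EGFP-negative replicates, at 1.297 to 1.39.

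Of the TGF-beta ligands, receptors and signal carriers, 1 of 12 tested in the MCH sort was called. Tgfb2 rose to 84.5 ± 3.74 CPM in EGFP-positive cells, against 41.3 ± 4.41 CPM in EGFP-negative cells (1.01 ± 0.13, adjusted p = 0.0012). In the HCRT sort its log2 fold change was 1.19 ± 0.25, not called (adjusted p = 0.0598). The list's median there was 0.93, against 0.02 for all genes tested. None of 13 was called in the HCRT sort, where Smad4 averaged 169 ± 16.1 CPM in mCherry-positive and 192 ± 25.3 CPM in mCherry-negative cells, and Smad2 averaged 69.1 ± 9.68 and 83.2 ± 6.72 CPM in the same order. Smad4, which carries the signal of the receptors, stood in the MCH sort at 30.8 ± 14.5 CPM in EGFP-positive and 37.5 ± 4.95 CPM in EGFP-negative cells. Neither gene differed between the sorts in its effect past the threshold (adjusted p = 0.928 for Smad4 and 0.397 for Smad2).

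**Figure D5:**
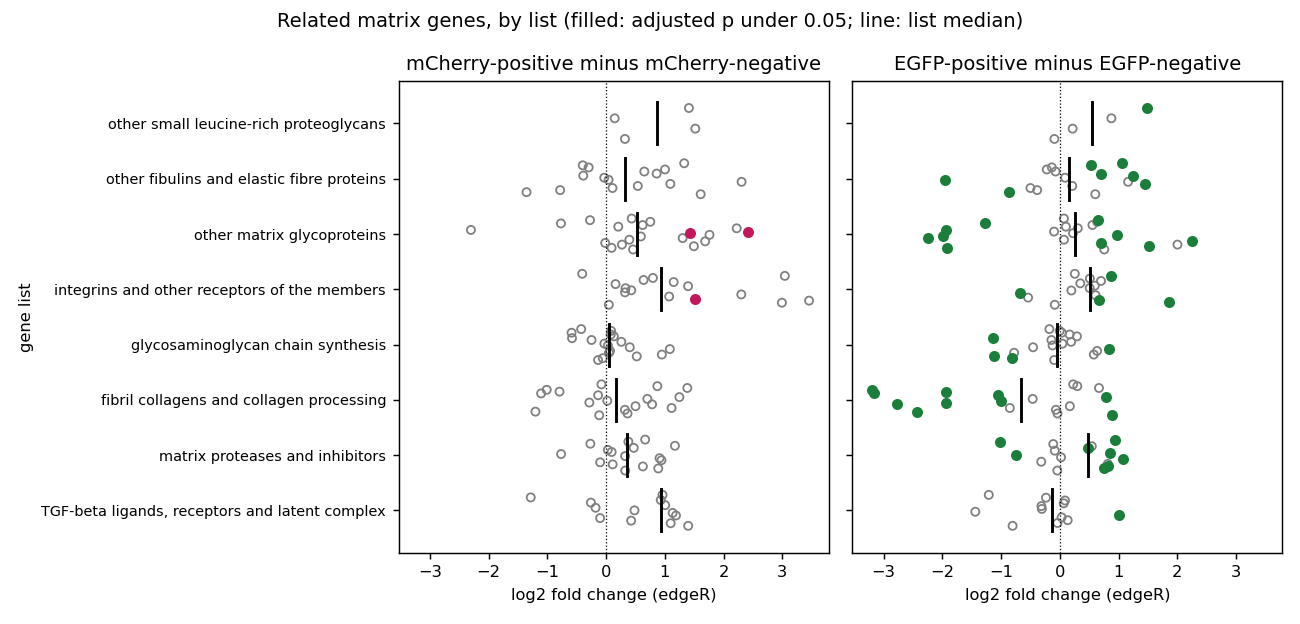
Fitted log2 fold changes of the related matrix genes tested in the HCRT sort (mCherry) and the MCH sort (EGFP), 1 point a gene and 1 row a list (receptors are those of the 10 proteins), with the list median as a black line and filled points for adjusted p under 0.05 in edgeR's quasi-likelihood test. In the MCH sort 24 of 117 points are called above 0 and 21 below, and in the HCRT sort 3 of 121 are called, all above 0.

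All folds compare reporter-positive with reporter-negative cells of the same sort. The common biological coefficient of variation was 0.382 in the HCRT sort and 0.189 in the MCH sort. Of the related genes, 31 of 121 had an unadjusted p under 0.05 in the HCRT sort and 60 of 117 in the MCH sort. Over all genes tested, 3233 of 17369 and 4974 of 16326 did so. Genes with an unadjusted p under 0.05 were counted for the 6 lists without a call by edgeR in the HCRT sort. They were 0 of 4 for the other proteoglycans, 5 of 16 for fibulins and elastic fibres and 3 of 18 for chain synthesis. The counts were 2 of 18 for collagens, 6 of 16 for proteases and 3 of 13 for TGF-beta. DESeq2 called 0, 3, 2, 1, 3 and 3 of them in that order, and limma-voom called 1 gene in all, of the collagen list. In 1 fit of all 12 libraries, which gives both sorts 1 spread, the MCH calls of Lum and Ogn were lost. So were those of the related genes Ecm2, Efemp2, Ltbp1, Mfap4, Thbs2, Sparcl1, Spp1, Tlr2, Sdc4, Itga5, Col5a2, Col1a1, Col3a1 and Mmp15. For these related genes the adjusted p ran from 0.0504 for Efemp2 to 0.295 for Mfap4. There Mfap2 fell and Timp2 rose in the HCRT sort (adjusted p = 0.0441 and 0.0265).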

How the data were processed

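Whole-number read counts per Ensembl gene were deposited by the authors, 1 file per library and without normalization. Per the submitters' processing notes, cutadapt 1.8, STAR 2.5.2b and HTSeq 0.6.1 were used with genome build GRCm38; settings, strand and annotation release are not given in the sources used here. HTSeq's 5 summary entries, 31.4% to 38.2% of counted reads, were left out. Symbols and positions came from GENCODE M21, which matched 48349 of 48709 identifiers.

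Each sort of 6 libraries was fitted with edgeR 4.0.16 (TMM factors, filterByExpr with a minimum count of 10, quasi-likelihood F test, Benjamini-Hochberg over all genes tested, threshold 0.05). The difference between sorts came from 1 fit of all 12. SEs were derived as the absolute log2 fold change over the root of F. The script was tested on simulated data with known changes. Levels per library are CPM with TMM factors over 12 libraries; profiles used log2 of CPM plus 0.5. Replicates differed by more than sampling noise (chi-square per degree of freedom of 6.20 or more between any 2 of a group), so none was a copy.

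The 10 genes and all lists were chosen with earlier results of these data known. All 10 are named. Of each related list, up to 3 called genes of smallest adjusted p are named per direction, or, where none was called, the 2 of highest mean CPM; for profiles, the 2 nearest genes. Of the marker lists only sums, counts and genes at 0 are given. Alternatives were DESeq2 1.42.0, limma 3.58.1 voom, DESeq2 size factors, other filters, a replicate block, 1 fit of all 12 libraries and leaving out each library.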

Additional observations from a re-analysis of the deposited data

Results flagged for a closer look

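In 9 genes the effect of the HCRT sort (mCherry-positive over mCherry-negative) and that of the MCH sort (EGFP-positive over EGFP-negative) differed past the threshold in edgeR's test of the difference. For Fbln1, chosen on these counts and therefore given without a p-value, the mCherry effect minus the EGFP effect was -1.07 on the log2 scale. Efemp2 and Serpinh1 had the same sign, at -0.95 and -1.02. The difference was positive for Reln at 2.48, Tnr at 1.99, Ust at 1.61, Adamts4 at 1.37, Sparc at 1.17 and Lrp1 at 0.98. Across the alternatives the adjusted p ran from 2.9e-07 to 0.0416 for Reln, from 6.9e-07 to 0.0513 for Tnr, from 0.0017 to 0.134 for Efemp2, from 0.0018 to 0.122 for Serpinh1 and from 0.00031 to 0.108 for Lrp1. For Ust, Adamts4 and Sparc the highest adjusted p was 0.0725, 0.0732 and 0.0762. Leaving out 1 library ended the call of Tnr without EGFP-negative replicate 3 (1.949), that of Sparc without EGFP-positive replicate 2 or 3 or any 1 of the EGFP-negative replicates (1.14 to 1.21), and that of Serpinh1 without any 1 library except mCherry-positive replicate 1 and mCherry-negative replicate 3 (-1.04 to -0.94). Virus and RNA input also differ between the sorts and cannot be told apart from the reporter.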

How the results depend on the processing

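Among the 10 genes, 399 recomputed fold changes kept their sign and moved by less than 1 SE, and 22 changed sign or moved by more; among the related genes, 697 kept direction and side of the threshold, 102 lost and 4 gained a call, and 11 changed sign. In the HCRT sort the 1 called of the 10 genes became 2 with DESeq2 (Fbln1 added) and 2, the same genes, with all 12 samples in 1 fit, and 0 to 0 without 1 library. The 3 related genes called there became 12 with no filter on low counts, 9 with a stricter filter, 21 with DESeq2, 5 with limma-voom, 7 with the replicate block, 18 in the fit of all 12, and 0 to 2 without 1 library. In the MCH sort the 5 called of the 10 genes became 3 with the stricter filter, 3 in the fit of all 12 and 3 to 6 without 1 library; the 45 related genes became 20 in the fit of all 12 and 30 to 59 without 1 library. For the difference between sorts, the 1 called of the 10 genes became 0 to 2 without 1 library, and the 8 related genes became 14 with DESeq2 and 1 to 10 without 1 library. In each case the cause was not tested, except that the stricter filter left fewer genes of low count to test.

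Whether replicate numbers pair the libraries could not be decided with 3 libraries a group. Deviations of same-numbered libraries correlated at 0.126, -0.0191 and 0.0246 in the HCRT sort and at 0.114, -0.0046 and 0.0287 in the MCH sort. Those of other-numbered libraries ran from -0.137 to 0.126 and from -0.101 to 0.0778. Pituitary markers were lowest in replicate 1 of both mCherry groups, at 9.06 and 7.29 CPM. Microglial markers were highest in mCherry-positive replicate 1 (753 CPM) but lowest in mCherry-negative replicate 1 (47.1 CPM). With the number as a replicate block, 1, 5 and 1 of the 10 genes were called in the HCRT sort, the MCH sort and the difference, and 7, 53 and 7 related genes; the difference for Lrp1 was then 0.99 (adjusted p = 0.0527) and no longer called. The blocked counts do not bear on the size of an effect.

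Fold changes that changed sign were those of uncalled genes. Over all settings Bgn ran from -0.387 to 0.47 in the HCRT sort and from -0.267 to 0.58 for the difference, and the Fmod difference from -6.66 to 4.36. In the HCRT sort, Optc was at -0.000597 with limma-voom, and without 1 library the values ran from -0.058 to 0.81 for Tsku, from -0.27 to 0.44 for Optc, from -0.085 to 0.31 for Chpf, from -0.078 to 0.22 for B3gat3 and from -0.23 to 0.17 for Serpine2. For the difference, Smad4 ran from -0.16 to 0.53 without 1 library. Depth limits Lum, Ogn and Fmod, which had 10 to 131 reads in several groups.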
